A study of Mus musculus with 24 samples.

Results

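The response to cigarette smoke is described here in airway epithelium grown from female mice, as the difference between 6 cultures held under smoke and 6 held under air. All genes whose normalised count averaged 10 or more over these 12 libraries were followed, 13559 of the 25239 in the table. The series holds 24 libraries in 4 groups of 6, and the male cultures appear below only where the female response is set against theirs. Both female groups were tracheal epithelial cells of 7- to 8-week-old FVB/NJ mice, wild type in genotype, expanded in submerged culture and then differentiated for 10 to 14 days on porous inserts with their upper side exposed to air. The female smoke group, inserts 1 to 6, then spent 10 days under smoke, where 1 exposure was the burning of 2 cigarettes over about 8 minutes. The female air group, also inserts 1 to 6, spent the same 10 days under humidified air. Such cultures model the epithelium and lack the blood supply and recruited immune cells of a trachea. The labels name no donor animal for any insert, so the 6 inserts of a group may come from 1 cell preparation, and the p-values then measure only the spread between inserts, which may be technical.

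Tracheal epithelium is made of basal cells, which are the stem cells of the layer, and of secretory club and goblet cells, multiciliated cells and rare ionocytes, tuft cells and neuroendocrine cells. Mucus made by the secretory cells traps inhaled particles and the beat of the cilia carries it out of the airway. Smoke carries aromatic hydrocarbons that bind the aryl hydrocarbon receptor, a ligand-activated transcription factor, together with oxidants and reactive aldehydes that cells clear with conjugating and reducing enzymes. In the airways of smokers the epithelium is known for shortened or missing cilia, for patches of flattened, keratin-rich squamous cells and for the release of signals that draw neutrophils.

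The female libraries held 16294752 to 24406742 reads assigned to genes. Xist, expressed from the inactive X chromosome, ranged from 3665 to 16401 normalised counts and the Y-linked genes Ddx3y, Eif2s3y, Kdm5d and Uty were at 0 in all 12 libraries, as female cells should be. Smoke insert 4 and air insert 1 stood apart from the other 10 libraries. In both, the deviation of a gene from its group median fell with the length of its transcript, with a Spearman correlation across genes of -0.427 in smoke insert 4 and -0.675 in air insert 1, against -0.107 to 0.340 in the other libraries. In smoke insert 4, 3037 genes and in air insert 1, 4962 genes lay over 2-fold from their group median, against 207 to 1093 genes in the other libraries. Every result below was therefore computed with all 12 libraries and again with the 10 that remain without this pair, and a gene is said to have risen or fallen where it passed the test with all 12 unless the 10 libraries are named. Some defining markers of leukocytes and endothelium were at or near 0, while other markers of these cells and some fibroblast genes were not. The pan-leukocyte gene Ptprc averaged 1.49 normalised counts in smoke and 2.18 in air inserts, and the macrophage gene Adgre1, the adaptor Tyrobp and the endothelial genes Cdh5 and Kdr were at 0. Pecam1, another endothelial gene, averaged 6.98 in smoke and 8.56 in air inserts. Of 14 leukocyte markers 7 were tested, with a summed level of 13849.7 to 52723 in smoke inserts and 39786 to 143785 in air inserts, to which Lyz2, a lysozyme that airway secretory cells also make, gave 29.2% in smoke insert 4, 51.3% to 76% in the other smoke inserts and 80.9% to 90.8% in air inserts. Of these 7 markers Cd68, a lysosomal protein, rose by 0.77 ± 0.25 (limma adjusted p = 0.043; limma adjusted p = 0.0931 without smoke insert 6) and Lyz2 and Csf1r fell, and with the 10 libraries Cd68, Cd14 and Itgam rose and the same pair fell. Of 11 fibroblast markers 5 were tested, among them Dcn with a mean of 18.5 in smoke and 181 in air inserts and Postn with 52.4 in smoke and 385 in air inserts, with a summed level of 807 to 1375 in smoke inserts and 1060.4 to 2412 in air inserts. Of 9 endothelial and smooth muscle markers 3 were tested, with 61.1 to 1266 in smoke and 229 to 1835 in air inserts.

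**Figure D1:**
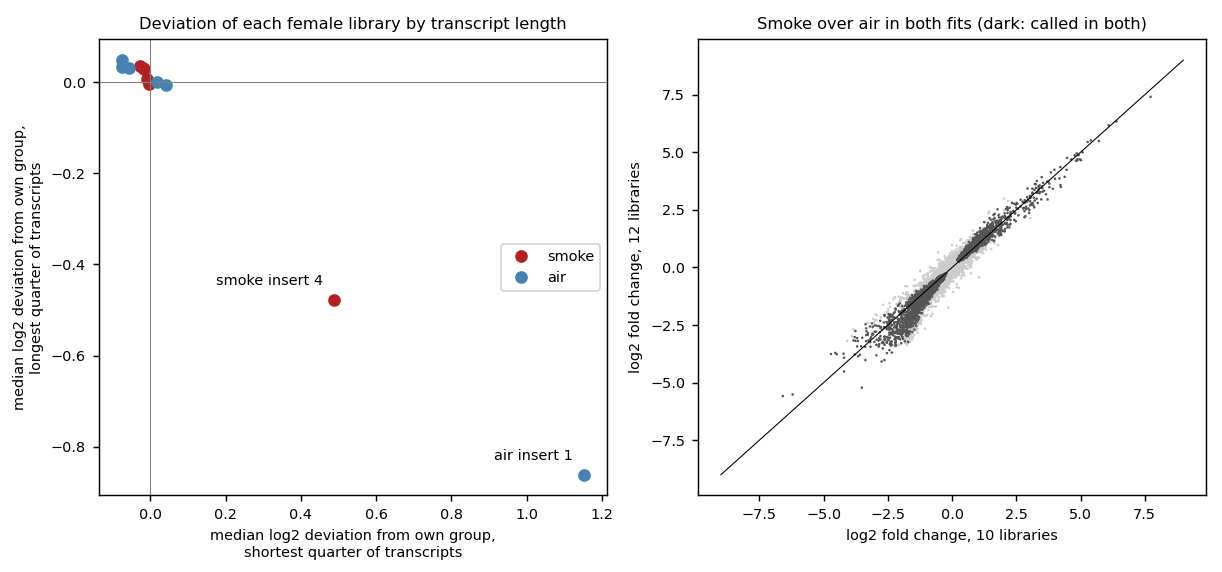
Left, 1 point per library, coloured by group. The x axis gives the median log2 deviation from the group median of genes with the shortest transcripts (up to 1870 bases). The y axis gives it for the longest transcripts (from 4474 bases). Smoke insert 4 and air insert 1 are the only libraries in which short transcripts lie well above long ones, at 0.489 against -0.478 and at 1.15 against -0.862. Right, each gene's log2 fold change, smoke over air, with 10 libraries on the x axis and 12 on the y axis. Dark points are the 2809 genes called in both.

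With all 12 libraries, 2879 of the 13559 genes passed limma's moderated test on log2 of the normalised count plus 1 at a Benjamini-Hochberg adjusted p under 0.05, which is 21.2% of those tested. Of these, 1322 genes (9.75%) were higher and 1557 genes (11.5%) were lower in smoke inserts. With the 10 libraries 6055 genes (44.7%) passed, 2996 (22.1%) higher and 3059 (22.6%) lower. These shares of all genes, from the same fit and direction, are the background for every count of list members below. Called in both were 2809 genes (20.7%), each with the same sign, 1304 (9.62%) higher and 1505 (11.1%) lower, so that nearly all genes called with 12 libraries were also called with 10 while 3246 genes passed only with 10. Among genes called with 12 libraries a change of at least 2-fold was more often a fall, in 957 genes, than a rise, in 572 genes. In the authors' deposited table for the female cultures 4255 genes had an adjusted p under 0.05, of which 1851 were higher in smoke and 2404 higher in air. Of these, 2849 were also called here with 12 libraries and 3585 with 10, all with the same sign. These are bulk measurements, in which fewer cells of a type and less RNA of a gene per cell cannot be told apart. Each fold change is the log2 of smoke over air with its standard error (SE, n = 6 inserts in each group), and the pseudocount of 1 understates it for genes of low level.

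The genes that answer to the aryl hydrocarbon receptor are a standard readout of exposure to smoke. Without ligand the receptor sits in the cytoplasm, and with it the receptor pairs with Arnt in the nucleus and binds DNA at sites that hold the letters GCGTG. Cyp1a1, the cytochrome P450 that oxidises polycyclic hydrocarbons, had 28.2, 144, 60.7, 38.4, 284 and 267 normalised counts in smoke inserts 1 to 6, against 4.56, 7.94, 2.73, 3.27, 0.926 and 1.02 in air inserts 1 to 6. Its log2 fold change was 4.65 ± 0.63 (limma adjusted p = 0.0010). The groups did not overlap, and smoke inserts 1 and 4, at the low end, still held several times the highest air value. Cyp1a1 averaged 3.41 in air inserts and entered the test only through the smoke inserts. Its rise therefore follows from its entry and is not read against other genes. Cyp1b1, a sister enzyme that also acts on oestrogens, had 5024 to 17232 (median 7575) normalised counts in smoke inserts, against 610.1 to 1427 (median 1027) in air inserts, a log2 fold change of 3.08 ± 0.32 (limma adjusted p = 0.000213). The repressor Ahrr, which competes with the receptor for Arnt, was too low to be tested, with a mean of 11.9 in smoke inserts and 0.154 in air inserts. Tiparp, an ADP-ribosyltransferase that marks the receptor for turnover, rose by 1.16 ± 0.26 (limma adjusted p = 0.0106), and air insert 1, at 426, lay below the other air inserts, at 1029 to 1206. Nqo1, a quinone reductase under both this receptor and NRF2, had 3745 to 4910.2 (median 4576) in smoke inserts, against 1456 to 2599.5 (median 1981) in air inserts (log2 fold change 1.16 ± 0.15, limma adjusted p = 0.000697). The receptor itself, Ahr, had 1589 to 3432 (median 2882) in smoke inserts, against 2314 to 4085 (median 3657) in air inserts, with a log2 fold change of -0.34 ± 0.20 that passed only with the 10 libraries (limma adjusted p = 0.0178). In all, 4 of 7 tested members of this list rose and none fell, or 3 of the 6 that averaged 10 or more in both groups, where 9.75% of all genes rose.

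Promoters of the pair with the largest changes are shown because they carry the letters that the receptor and Arnt bind. Each run is the 250 bases before the transcription start, from RefSeq on GRCm38.p6, written 5′ to 3′ on the gene's strand with GCGTG or its complement CACGC in capitals. The window of Cyp1a1 is chr9:57697363-57697612 (plus strand) and that of Cyp1b1 chr17:79715062-79715311 (minus strand).
Cyp1a1: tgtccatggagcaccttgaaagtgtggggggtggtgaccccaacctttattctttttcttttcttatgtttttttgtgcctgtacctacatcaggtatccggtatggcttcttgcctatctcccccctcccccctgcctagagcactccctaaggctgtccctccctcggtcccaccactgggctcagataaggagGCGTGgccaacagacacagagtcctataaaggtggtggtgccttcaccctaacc
Cyp1b1: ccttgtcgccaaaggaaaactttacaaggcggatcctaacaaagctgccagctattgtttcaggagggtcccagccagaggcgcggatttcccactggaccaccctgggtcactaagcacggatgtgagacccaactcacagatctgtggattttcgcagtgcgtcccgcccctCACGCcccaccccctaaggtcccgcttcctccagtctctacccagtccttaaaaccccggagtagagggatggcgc
Searched on both strands with overlaps allowed, each holds 1 match, the first base of which lies 54 bases before the start in Cyp1a1 and 76 in Cyp1b1. The same 5 letters occur in 28.16% of all 32851 promoters of this length and in 49.31% of the 10753 promoters matched to tested genes, so that a match is common. On this list, 4 of the 5 matched promoters hold one.

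Among the largest rises were genes of squamous differentiation, the program by which stratified epithelia such as epidermis build a tough outer layer. The small proline-rich proteins are short proteins that transglutaminases cross-link into the cornified envelope, and their genes lie side by side on chromosome 3. Of 16 listed members 9 were tested and 7 were below the filter. Of the 9, Sprr1b, Sprr2e, Sprr2f, Sprr2g and Sprr2h averaged under 10 in air inserts and entered the test only through the smoke inserts, so their rise follows from their entry and the count of 9 is not read against other genes. Sprr1a, Sprr2a3, Sprr2d and Sprr3 averaged 10 or more in both groups, and in these 4 every smoke insert lay above every air insert, as in 6.69% of all genes. Sprr2f had 1111, 3100.4, 1192, 312, 423 and 863 normalised counts in smoke inserts 1 to 6, against 4.56, 7.94, 5.46, 2.18, 2.78 and 4.08 in air inserts. Its log2 fold change was 7.41 ± 0.49 (limma adjusted p = 7.15e-06), the highest of the genes named here. Smoke insert 2 was the highest and smoke insert 4 the lowest, still far above every air insert. Sprr2h had 52.5 to 327 (median 247) in smoke inserts, against 0.91 to 3.04 (median 1.05) in air inserts (log2 fold change 6.34 ± 0.43, limma adjusted p = 7.15e-06). Sprr2d had 634 to 3340.4 (median 2466) in smoke inserts, against 14.6 to 54.7 (median 23.6) in air inserts (log2 fold change 6.18 ± 0.44, limma adjusted p = 1.03e-05). These 3 genes were low in air, whereas Sprr2a3, in the same cluster, was well expressed without smoke and changed least. Sprr2a3 had 1865 to 7473 (median 2771) in smoke inserts, against 359 to 1212 (median 633) in air inserts, a log2 fold change of 2.37 ± 0.38 (limma adjusted p = 0.00248). Sprr1a, which is also known as a gene of wounded epithelium and regenerating axons, had 903, 7802, 1081, 4595, 4157 and 754 in smoke inserts and 111, 68.1, 68.2, 58.8, 82.4 and 65.2 in air inserts, with a log2 fold change of 4.87 ± 0.54 (limma adjusted p = 0.000297). Sprr3, a protein of moist squamous linings such as the oesophagus, had 126, 205, 153, 2325, 2674 and 245 in smoke inserts, where inserts 4 and 5 stood far above the rest, and 32.9 to 53 (median 36.5) in air inserts, with a log2 fold change of 3.43 ± 0.74 (limma adjusted p = 0.00934). Sprr1b, Sprr2e and Sprr2g reached at most 194 normalised counts in any smoke insert, with log2 fold changes of 4.76, 4.24 and 4.69. The members of the Sprr2 family are close copies of each other, so reads may have been shared among them and the split between members is uncertain.

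The promoters of 3 of these genes are shown because each holds TGACTCA, the sequence bound by AP-1, dimers of Fos and Jun proteins. Whether AP-1 had a part in their rise was not tested. The runs are again 250 bases before the start, with TGACTCA or its complement TGAGTCA in capitals. The windows are chr3:92485882-92486131 (minus strand) for Sprr1a, chr3:92364937-92365186 (plus strand) for Sprr2f and, for Sprr2h, chr3:92385435-92385684 (plus strand).
Sprr1a: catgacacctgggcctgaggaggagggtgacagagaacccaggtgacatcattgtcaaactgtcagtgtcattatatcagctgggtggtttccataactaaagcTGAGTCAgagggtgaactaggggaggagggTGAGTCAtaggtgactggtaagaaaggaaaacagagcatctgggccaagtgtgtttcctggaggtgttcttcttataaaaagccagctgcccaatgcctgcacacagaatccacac
Sprr2f: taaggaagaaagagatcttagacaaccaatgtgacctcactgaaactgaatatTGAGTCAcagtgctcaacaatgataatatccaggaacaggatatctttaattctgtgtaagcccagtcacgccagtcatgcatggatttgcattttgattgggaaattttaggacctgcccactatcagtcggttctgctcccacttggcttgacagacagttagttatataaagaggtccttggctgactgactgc
Sprr2h: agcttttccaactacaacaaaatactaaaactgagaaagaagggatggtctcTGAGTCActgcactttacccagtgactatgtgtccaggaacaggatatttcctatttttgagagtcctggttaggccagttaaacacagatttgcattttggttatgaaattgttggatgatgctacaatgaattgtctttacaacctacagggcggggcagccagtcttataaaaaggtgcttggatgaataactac
The matches begin 146 and 116 bases before the start in Sprr1a, 197 in Sprr2f and 198 in Sprr2h, at nearly the same place in the last pair. Of the 8 matched promoters of tested family members 5 hold the letters (62.5%), those of Sprr1a, Sprr2d, Sprr2e, Sprr2f and Sprr2h, against 4.46% of all 32851 promoters and 4.28% of the 10753 of tested genes. The 5 share ancestry and a cluster, so they are not separate observations.

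Other parts of the cornified envelope moved unevenly. Of 19 tested members of that list 7 rose and none fell, or 4 of the 16 that averaged 10 or more in both groups. Krtdap, a protein of early keratinocyte differentiation, had 4.7 to 254 (median 44.2) in smoke inserts, against 0 to 8.19 (median 0.545) in air inserts (log2 fold change 4.36 ± 0.94, limma adjusted p = 0.00953), and Cnfn, or cornifelin, had 504 to 4582 (median 1123) in smoke inserts, against 24.5 to 469 (median 110.2) in air inserts (log2 fold change 3.87 ± 0.68, limma adjusted p = 0.00405). Krtdap, at most 8.19 in any air insert, entered the test only through the smoke inserts and is not among the 16. Tgm1, the transglutaminase that performs the cross-linking, rose by 1.72 ± 0.12 (limma adjusted p = 1.03e-05), as did the protease inhibitors Cst6, by 3.30, and Csta1, by 2.06. Ivl, which encodes involucrin, the scaffold of the envelope, had 56.7 to 396 (median 109) in smoke inserts, against 47.7 to 85.2 (median 55.5) in air inserts. It did not pass with 12 libraries (limma adjusted p = 0.0836) and passed with 10, at a log2 fold change of 0.76 ± 0.24 (limma adjusted p = 0.0272). Loricrin, encoded by Lor and the main protein of the envelope in epidermis, did not pass in either fit, with a log2 fold change of -0.45 ± 0.31.

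Keratins form the intermediate filaments of epithelia, and the type made marks the kind of epithelium. The keratins of wounded or hyperproliferative skin were among the 6 of 16 that rose. Krt6b had 3184 to 8644 (median 5477) in smoke inserts, against 70.3 to 217 (median 100.1) in air inserts (log2 fold change 5.52 ± 0.33, limma adjusted p = 3.88e-06), its partner Krt16 had 224 to 2395 (median 444) in smoke inserts, against 42 to 79.1 (median 68.1) in air inserts (log2 fold change 3.22 ± 0.48, limma adjusted p = 0.00163), and Krt6a had 48024 to 77847 (median 63485) in smoke inserts, against 12012 to 23956 (median 20216) in air inserts (log2 fold change 1.71 ± 0.19, limma adjusted p = 0.000297). Krt78, Krt23 and the simple epithelial Krt7 were the other 3, with log2 fold changes of 1.89, 2.87 and 0.85. Krt13 and Krt4, the pair of non-cornified squamous linings, were higher by 0.74 and 0.59 and passed only with 10 libraries. The simple epithelial pair Krt8 and Krt18 had log2 fold changes of -0.65 and -0.42 and also passed only with 10 libraries. Krt1, a keratin of epidermis, fell with 12 libraries, at -1.27 (limma adjusted p = 0.0381), and did not pass with 10.

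Proteases that process and shed squamous layers rose with their inhibitors. Of 29 tested serine proteases and inhibitors 12 rose (41.4%, against 9.75% of all genes) and 1 fell. Of the 28 that averaged 10 or more in both groups 11 rose and 1 fell. The kallikreins Klk13 and Klk10 had 33.4 to 337 (median 125) and 1253 to 5340.2 (median 3013) in smoke inserts, against 3.27 to 15.2 (median 12.9) and 200.5 to 1309.9 (median 716) in air inserts, with log2 fold changes of 3.54 ± 0.51 and 2.38 ± 0.48. The membrane proteases Tmprss11e, Tmprss11a and Tmprss11f, neighbours in one cluster, rose by 3.42, 3.33 and 1.58. Serpinb2, an inhibitor of plasminogen activators, had 149 to 1012 (median 435) in smoke inserts, against 22.4 to 97.3 (median 34.9) in air inserts (log2 fold change 3.45 ± 0.46, limma adjusted p = 0.000911). Spink5, the inhibitor of kallikreins, rose by 1.22 and Serpinb3a by 2.59. Serpinb12 was the 1 member that fell, with 1.2 to 451 (median 105) in smoke inserts, against 388 to 1129 (median 648) in air inserts (log2 fold change -3.09 ± 1.01, limma adjusted p = 0.0463).

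**Figure D2:**
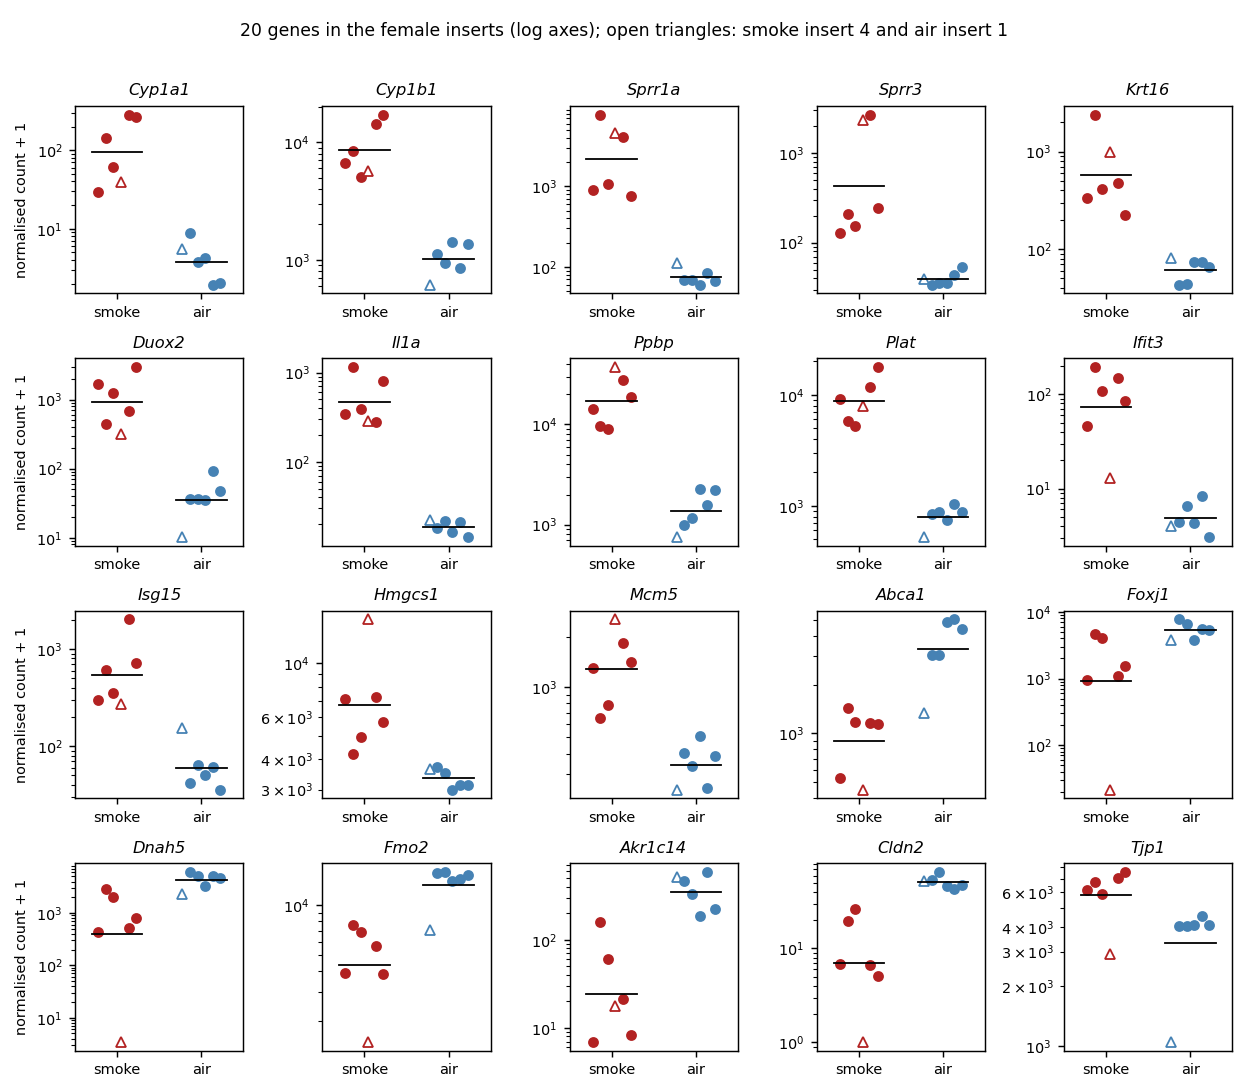
Normalised count plus 1 on a log axis for 20 genes in each female insert, smoke left of air; each point is 1 insert, the bar is the mean of the log2 values, and open triangles mark smoke insert 4 and air insert 1. In Cyp1a1, Sprr1a, Krt16, Duox2, Il1a and Plat the 2 groups do not overlap, while in Foxj1 and Dnah5 smoke insert 4, at 20.4 and 2.4 normalised counts, lies far below all other inserts. Cyp1a1 and Ifit3 averaged under 10 in air inserts and entered the test only through the smoke inserts.

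Genes of the epithelium's own defence followed. Of 15 tested S100 proteins, small calcium-binding proteins, 7 rose (46.7%, against 9.75% of all genes) and 3 fell (20%, against 11.5%). Of the 13 that averaged 10 or more in both groups 6 rose and 2 fell. S100a8 and S100a9, which pair as calprotectin, which starves microbes of metals, are abundant in neutrophils and also made by stressed epithelium. Averaging under 10 in air inserts, S100a8 entered the test only through the smoke inserts. It had 19.8 to 182 (median 59.7) in smoke inserts, against 0 to 12.2 (median 0.567) in air inserts (log2 fold change 4.70 ± 0.74, limma adjusted p = 0.00221). The leukocyte markers given above, of which Cd68 also rose and Ptprc was near 0 in both groups, stand beside this, and their part in it was not tested. S100a7a, or psoriasin, had 52.7 to 310.3 (median 132) in smoke inserts, against 7.13 to 16.7 (median 11.9) in air inserts (log2 fold change 3.39 ± 0.38, limma adjusted p = 0.000335). The members that fell were S100b, S100g and S100a1, at log2 fold changes of -3.27, -1.95 and -1.27.

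Of 20 tested secreted antimicrobial genes 8 rose (40%, against 9.75% of all genes) and none fell. Lyz2 and Bpifa1, which are counted in other lists, fell, at log2 fold changes of -1.83 and -3.70. The summed level of the listed genes was 299161 to 647188 in smoke inserts and 494721 to 1063130 in air inserts. Duox2, an oxidase of the apical membrane that makes hydrogen peroxide, had 1700.2, 441, 1259, 315, 681 and 2961 normalised counts in smoke inserts and 9.13, 35.2, 35.5, 33.8, 92.6 and 45.8 in air inserts. Its log2 fold change was 4.69 ± 0.59 (limma adjusted p = 0.00066), and every smoke insert lay above every air insert. Its maturation factor Duoxa2, which lies beside it, rose by 4.24 ± 0.46 (limma adjusted p = 0.00026). The sister oxidase Duox1, which airway epithelium makes constitutively, had 593 to 1193 (median 710.2) in smoke inserts, against 323 to 696 (median 518) in air inserts and did not pass in either fit. Slpi, an inhibitor of neutrophil elastase, had 573 to 1160.3 (median 857) in smoke inserts, against 60.1 to 546 (median 108) in air inserts (log2 fold change 2.75 ± 0.44, limma adjusted p = 0.00252). The peptidoglycan-recognising Pglyrp4 and Pglyrp3 rose by 2.91 and 2.18, Wfdc12 by 2.73, Chil1 by 2.69 and the defensin Defb14 by 1.81. Lcn2, Ltf, Saa3 and Reg3g, other inducible antimicrobial genes, did not pass in either fit, with log2 fold changes between -0.72 and -0.14.

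Cytokines of the interleukin-1 family are stored or released by damaged epithelium and act as alarms. Il1a had 346, 1155, 388, 286, 281 and 801 in smoke inserts, against 21.3, 17, 20.9, 15.3, 20.4 and 13.2 in air inserts, a log2 fold change of 4.63 ± 0.35 (limma adjusted p = 1.4e-05). Il36a and Il36g, listed under their older names Il1f6 and Il1f9, had 43.4 to 147 (median 101) and 1644 to 3971 (median 2889) in smoke inserts, against 6.11 to 21.3 (median 13.3) and 767 to 1295 (median 911) in air inserts. Their log2 fold changes were 2.81 ± 0.34 and 1.55 ± 0.21 (limma adjusted p = 0.000533 and 0.00103). Il33, an alarm protein held in the nucleus, and Gsdmd, the pore-forming gasdermin, also rose, Il33 by 1.42 ± 0.44 (limma adjusted p = 0.0372) and Gsdmd with 616 to 1267 (median 936) in smoke inserts, against 392 to 752 (median 415) in air inserts (limma adjusted p = 0.00695). So 5 of 13 tested members rose, all of them cytokines but Gsdmd, while the receptors Il1r1 and Il1rl2, the processing enzyme Casp1, the related cytokine Il18 and the receptor antagonist Il1rn did not pass, at log2 fold changes of -0.22 to 0.44.

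The chemokines that rose were almost all ligands of the neutrophil receptor Cxcr2. Of 12 tested, 6 rose (50%, against 9.75% of all genes), namely Cxcl1, Cxcl2, Cxcl3, Cxcl5 and Ppbp, which share that receptor, and Cxcl10, which draws T cells and is induced by interferon. Averaging 10 or more in both groups were 11, of which 5 rose and 2 fell. Cxcl10, at most 3.64 in any air insert, entered the test only through the smoke inserts. Ppbp had 14161, 9728, 8972, 37494, 27650.4 and 18742 normalised counts in smoke inserts and 747, 994, 1153, 2254, 1583 and 2218 in air inserts, a log2 fold change of 3.63 ± 0.39 (limma adjusted p = 0.000249). Cxcl5 had 4557 to 18551 (median 13252) in smoke inserts, against 628 to 3785 (median 1176) in air inserts (log2 fold change 3.03 ± 0.47, limma adjusted p = 0.00205) and Cxcl3 had 175 to 1587 (median 723) in smoke inserts, against 6.54 to 35 (median 21.6) in air inserts (log2 fold change 4.95 ± 0.52, limma adjusted p = 0.000245). Cxcl10 had 1.2 to 122 (median 22.3) in smoke inserts, against 0 to 3.64 (median 1.27) in air inserts (log2 fold change 3.50 ± 0.83, limma adjusted p = 0.0139). The members that fell were Ccl27a, a skin-homing chemokine, and Cx3cl1, or fractalkine, at log2 fold changes of -1.27 and -1.03. Ccl20, which draws dendritic cells, did not pass in either fit at 0.62 ± 0.55.

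Of 10 other tested cytokines 6 rose (60%, against 9.75% of all genes), or 4 of the 8 that averaged 10 or more in both groups. The 2 left out of that count, Csf2 among them, entered the test only through the smoke inserts. The colony-stimulating factors Csf3 and Csf2 had 563 to 3950.3 (median 2725) and 5.7 to 73.1 (median 15.3) in smoke inserts, against 141 to 246 (median 209) and 0 to 6.09 (median 1.56) in air inserts, with log2 fold changes of 3.25 ± 0.47 and 2.92 ± 0.64 (limma adjusted p = 0.00134 and 0.010). Tnf, Lif, Tnfsf9 and Il17c rose by 1.93, 1.98, 2.63 and 2.48, where Il17c did not pass with 10 libraries. Il6 averaged 0.347 in smoke inserts and was at 0 in air inserts, so it was not tested. Of 14 genes of prostaglandin and eicosanoid metabolism Ptgs2, the inducible cyclo-oxygenase, was the 1 that rose, where 9.75% of all genes did, and Alox12e, a lipoxygenase, was the 1 that fell, at a log2 fold change of -1.11 ± 0.16 (limma adjusted p = 0.00148). With 10 libraries 1 rose and 4 fell. Ptgs2 had 359.8 to 4862 (median 680.0) in smoke inserts, against 10.9 to 48.7 (median 30.8) in air inserts (log2 fold change 5.00 ± 0.60, limma adjusted p = 0.000469), while the constitutive Ptgs1 and the synthase Ptges, which acts downstream, did not pass at 0.04 ± 0.27 and 0.53 ± 0.32.

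Genes that switch off inflammatory signalling were also higher. Of 17 subunits and feedback genes of NF-kappaB, a transcription factor of inflammatory signalling, 9 rose (52.9%, against 9.75% of all genes) and none fell. The part of NF-kappaB in the rises above was not tested. The subunits Nfkb1 and Nfkb2 rose by 0.41 and 0.71, while Rela, Relb and Rel did not pass at 0.09, -0.01 and -0.08. The feedback inhibitors moved further. Tnip3 had 297 to 1331 (median 777) in smoke inserts, against 89.3 to 223 (median 114) in air inserts (log2 fold change 2.55 ± 0.33, limma adjusted p = 0.00083), Zc3h12a, an RNase that degrades cytokine transcripts, rose by 1.74 ± 0.36 (limma adjusted p = 0.00777) and Tnfaip3, or A20, by 1.40 ± 0.25 (limma adjusted p = 0.00425). Among 22 AP-1 and immediate early factors 11 rose (50%, against 9.75% of all genes) and none fell. Of the 21 that averaged 10 or more in both groups 10 rose. Fosl1, at most 4.36 in any air insert, entered the test only through the smoke inserts. Fosl1 had 5.99 to 95.9 (median 15.5) in smoke inserts, against 0 to 4.36 (median 1.03) in air inserts (log2 fold change 3.25 ± 0.62, limma adjusted p = 0.00551). Its relatives Fos, Fosb, Jun and Jund, which respond within minutes of a stimulus, did not pass in either fit, at log2 fold changes of 0.42, 0.34, 0.49 and 0.11. The phosphatases Dusp5 and Dusp1, which switch off MAP kinases, rose by 3.03 ± 0.27 and 1.65 ± 0.36, and Klf4 and Myc by 1.25 and 1.41.

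Ligands of the EGF receptor family rose, while the tested receptors named here did not pass. Of 14 tested members 6 rose (42.9%, against 9.75% of all genes), which were the ligands Areg, Ereg, Hbegf, Tgfa and Nrg1 and the feedback inhibitor Errfi1. Nrg1, the ligand of Erbb3, had 929, 555, 611, 1307, 1011 and 1407 in smoke inserts and 122, 202, 200.1, 222, 222 and 239 in air inserts, a log2 fold change of 2.21 ± 0.25 (limma adjusted p = 0.000359). Areg had 109 to 717 (median 193) in smoke inserts, against 53 to 105 (median 62.1) in air inserts (log2 fold change 1.73 ± 0.44, limma adjusted p = 0.0187), and Ereg and Hbegf rose by 1.98 and 1.22. Egfr, Erbb2 and Erbb3 did not pass in either fit, at 0.12 ± 0.34, -0.13 ± 0.15 and 0.24 ± 0.30. Of the plasminogen system, Plat, which encodes tissue plasminogen activator, had 9098, 5815, 5221, 7917, 11841 and 17792 in smoke inserts and 519, 839.7, 869.5, 744, 1036 and 874 in air inserts, with no overlap and a log2 fold change of 3.46 ± 0.28 (limma adjusted p = 2.8e-05). The receptor Plaur rose by 1.63 and the urokinase Plau did not pass at -0.18 ± 0.38.

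Interferon-stimulated genes form the antiviral program that cells switch on when interferon binds its receptor. Of 36 tested 21 rose (58.3%, against 9.75% of all genes) and none fell with 12 libraries, at a median log2 fold change of 1.57. Of the 35 that averaged 10 or more in both groups 20 rose. With the 10 libraries 34 of the 36 rose, against 22.1% of all genes, at a median of 1.91. Ifit3, which binds viral RNA complexes, had 44.7, 194, 107, 12, 147 and 84.9 in smoke inserts and 3.04, 3.4, 5.46, 3.27, 7.41 and 2.04 in air inserts, a log2 fold change of 3.93 ± 0.58 (limma adjusted p = 0.00149). Isg15, a ubiquitin-like modifier, had 296, 613, 348, 269, 2017 and 723 in smoke inserts and 154, 40.8, 63.7, 49, 60.2 and 34.6 in air inserts, a log2 fold change of 3.18 ± 0.49 (limma adjusted p = 0.0020). In both genes smoke insert 4 was the lowest smoke insert and still lay above every air insert. Ifit3, at most 7.41 in any air insert, entered the test only through the smoke inserts and is not among the 35. Across the list 25 of 36 members were highest in smoke insert 5 and 29 of 36 were lowest in smoke insert 4 among the smoke inserts. The oligoadenylate synthetases Oas3, Oas2 and Oas1g rose by 3.64, 2.90 and 2.61, and Rsad2, or viperin, by 2.95. Of 19 interferon genes, receptors and sensors 8 rose, among them the transcription factors Irf7, Irf9 and Stat2 by 1.67, 1.35 and 0.98 and the DNA sensor Cgas by 1.15. The interferons themselves were almost absent. Ifnb1 averaged 1.09 in smoke and 0.351 in air inserts, and Ifnl2 and Ifnl3 averaged 0.399 and 0.347 in smoke inserts and were at 0 in air inserts. Of 16 genes of class I antigen presentation, which interferon gamma induces strongly, 2 rose and 1 fell with 12 libraries and 8 rose and 1 fell with 10. The pair that rose with 12 were Tap1, by 0.74 ± 0.18 and H2-Q4, by 0.48 ± 0.16 (limma adjusted p = 0.0454; limma adjusted p = 0.10 without smoke insert 6).

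Promoters of the pair described are shown with the core of the interferon-stimulated response element in capitals, which is GAAA, any 2 bases and GAAA again, or its complement. The window of Ifit3 is chr19:34583279-34583528 (plus strand) and that of Isg15 chr4:156200819-156201068 (minus strand).
Ifit3: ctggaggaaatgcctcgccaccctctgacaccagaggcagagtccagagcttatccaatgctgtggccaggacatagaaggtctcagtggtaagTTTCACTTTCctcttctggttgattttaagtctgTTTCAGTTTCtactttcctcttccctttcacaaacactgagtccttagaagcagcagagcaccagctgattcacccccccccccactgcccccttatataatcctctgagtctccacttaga
Isg15: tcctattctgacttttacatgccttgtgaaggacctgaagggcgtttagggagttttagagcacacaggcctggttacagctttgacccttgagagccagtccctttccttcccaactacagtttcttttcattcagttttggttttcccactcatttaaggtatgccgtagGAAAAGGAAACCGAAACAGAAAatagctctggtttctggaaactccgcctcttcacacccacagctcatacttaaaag
The matches begin 156 and 122 bases before the start in Ifit3, and at 78, 72 and 66 in Isg15, where they overlap. Of the 26 matched promoters of the list 14 (53.85%) hold the letters, against 2.98% of all 32851 promoters and 3.15% of the 10753 of tested genes. The list was drawn up from known interferon targets, whose promoters are known for this element.

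Proliferation genes rose as a broad set with modest changes. Of 35 DNA replication genes 24 rose (68.6%) and none fell, and of 28 mitosis genes 22 rose (78.6%) and none fell. Of all genes 9.75% rose. Mcm5, part of the ring that unwinds DNA, had 1293, 649, 783, 2535, 1821 and 1414 in smoke inserts and 242, 404, 337, 509.9, 246 and 385 in air inserts, a log2 fold change of 1.90 ± 0.32 (limma adjusted p = 0.00297). Orc1, which marks origins, had 49 to 363 (median 140.2) in smoke inserts, against 13.7 to 56.7 (median 23.2) in air inserts (log2 fold change 2.28 ± 0.47, limma adjusted p = 0.00753). Mki67, the usual marker of cycling cells, had 1743 to 4964 (median 3458) in smoke inserts, against 1154 to 1868 (median 1540.0) in air inserts (log2 fold change 1.09 ± 0.25, limma adjusted p = 0.0116). Smoke insert 4 held the highest value among the smoke inserts for 34 of the 35 replication genes and 25 of the 28 mitosis genes. Without smoke insert 4 and air insert 1 the medians were 0.88 for replication and 1.08 for mitosis, against 1.04 and 1.30 with all 12. In those 10 libraries 30 (85.7%) and 27 (96.4%) members rose, against 22.1% of all genes. The p53 targets rose beside them in part, 11 of 27 with 1 fall. Cdkn1a, or p21, which blocks the cell cycle, had 7008 to 10260.4 (median 7941) in smoke inserts, against 3109.8 to 6239 (median 3527) in air inserts (log2 fold change 1.13 ± 0.17, limma adjusted p = 0.00166). The death genes Pmaip1 and Tnfrsf10b rose by 1.59 and 1.39, and the canonical targets Mdm2, Bbc3 and Fas did not pass in either fit at 0.30, -0.08 and -0.07.

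**Figure D3:**
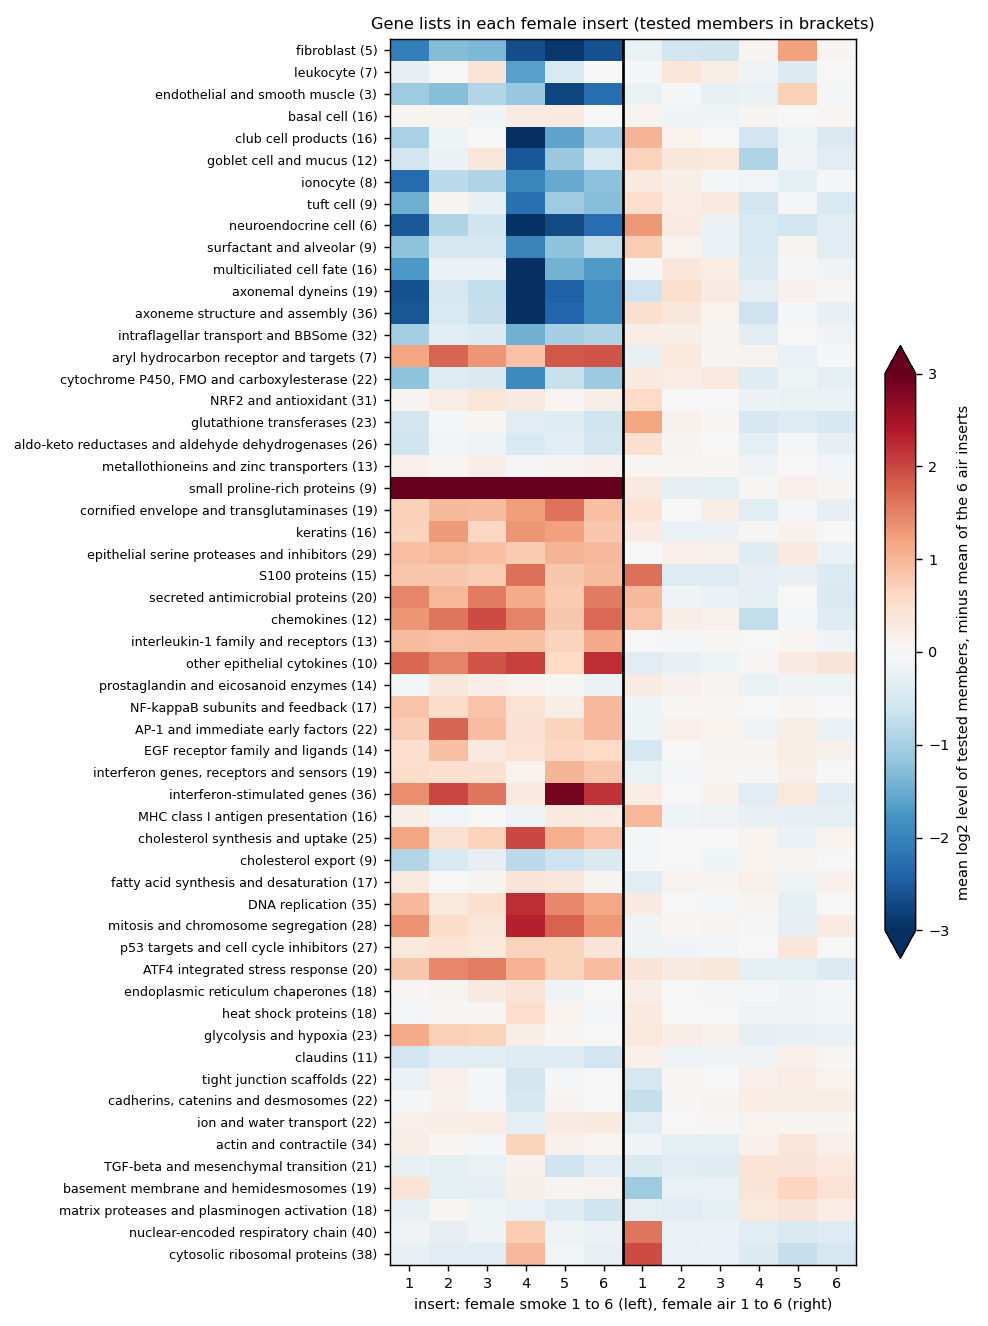
Heat map of the mean log2 level of the tested members of each gene list in each female insert, smoke inserts 1 to 6 left of air inserts 1 to 6, relative to the mean of the 6 air inserts. Small proline-rich genes are high in all 6 smoke inserts, while replication genes are highest and axonemal dyneins lowest in smoke insert 4.

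Cholesterol synthesis and export moved in opposite directions. Of 25 genes of synthesis and uptake 18 rose (72%, against 9.75% of all genes) and none fell with 12 libraries, at a median log2 fold change of 1.03. Hmgcs1, an early enzyme of the pathway, had 7106, 4203, 4949, 15163, 7252 and 5724 in smoke inserts and 3644, 3706, 3503, 2992, 3141 and 3121 in air inserts, a log2 fold change of 1.01 ± 0.25 (limma adjusted p = 0.0164). Smoke insert 4 held the highest value and every smoke insert lay above every air insert. Dhcr7, a reductase of the last steps, did not pass in either fit, at 0.45 ± 0.18 with 12 libraries (limma adjusted p = 0.0917) and 0.25 ± 0.11 with 10 (limma adjusted p = 0.103). Of 9 genes of export, which liver X receptors drive when sterols are plentiful, 5 fell (55.6%, against 11.5% of all genes) and 1 rose (11.1%, against 9.75%). Abca1, the cholesterol pump, had 528, 1437, 1175, 449.5, 1155 and 1142 in smoke inserts and 1339, 3035, 3049.8, 4838, 5029 and 4415 in air inserts, a log2 fold change of -1.88 ± 0.37 (limma adjusted p = 0.0063). Abcg1 fell by 1.19 on the log2 scale (limma adjusted p = 0.0441), and Apoe, the lipoprotein that accepts cholesterol, at -2.32 (limma adjusted p = 0.0106). Of 17 genes of fatty acid synthesis 4 rose and 2 fell, and Fasn, the synthase itself, did not pass at 0.17 ± 0.19. Within the smoke group insert 4 was highest for 22 and insert 2 lowest for 19 of the 25 synthesis genes.

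Genes of the ATF4 response, which cells start when amino acids run short or the kinases of the integrated stress response are active, rose in 11 of 20 cases with none falling, and in 16 with the 10 libraries. Those shares, 55% and 80%, stand beside 9.75% and 22.1% of all genes. Trib3, a pseudokinase that feeds back on ATF4, had 146 to 1079 (median 355) in smoke inserts, against 18.3 to 161 (median 70.3) in air inserts (log2 fold change 2.70 ± 0.58, limma adjusted p = 0.00954). Slc7a5, a transporter of large amino acids, had 2334 to 4852 (median 2603) in smoke inserts, against 314 to 1029 (median 489) in air inserts (log2 fold change 2.37 ± 0.30, limma adjusted p = 0.000601), and the glutathione-degrading Chac1 and the folate enzyme Mthfd2 rose by 2.26 and 2.06. Of 18 endoplasmic reticulum chaperones, the other arm of the unfolded protein response, only Edem1 passed with 12 libraries, at 0.49 ± 0.14 (limma adjusted p = 0.0295; limma adjusted p = 0.0625 without smoke insert 6), and Hspa5, or BiP, did not at 0.35 ± 0.17 (limma adjusted p = 0.166; with 10 libraries 0.35 ± 0.12, limma adjusted p = 0.0296). Of 23 glycolysis and hypoxia genes 10 rose (43.5%, against 9.75% of all genes) and none fell, led by Hk2, the first enzyme of glycolysis, at 1.21 ± 0.23 (limma adjusted p = 0.00608), and the angiogenic factor Vegfa at 1.05 ± 0.31 (limma adjusted p = 0.0331; limma adjusted p = 0.0719 without smoke insert 1).

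Cilia genes were lower in smoke inserts, and how many of them passed depended on the 2 libraries that stand apart. Motile cilia are built on a microtubule axoneme, are powered by dynein arms and are assembled by intraflagellar transport. Of 36 axoneme structure and assembly genes 14 fell with 12 libraries and 35 with 10, against 11.5% and 22.6% of all genes. Of 19 axonemal dyneins 8 fell with 12 libraries and 18 with 10. Their median log2 fold changes were -2.64 and -2.83 with 12 libraries, and -1.56 and -1.97 with 10, so that more members passed in the 10 libraries at smaller fold changes. Dnah5, the heavy chain of the outer arm, had 429, 2822, 2024, 2.4, 526 and 800.4 in smoke inserts 1 to 6, against 2306, 6117, 5145, 3236, 5146 and 4588 in air inserts 1 to 6. Smoke insert 4 held almost none, and air insert 1 was the lowest of the air inserts. Its log2 fold change was -3.43 ± 1.29 with 12 libraries (limma adjusted p = 0.0742) and -2.24 ± 0.48 with 10 (limma adjusted p = 0.00491). Smoke inserts 2 and 3 kept the most, and smoke insert 2 was the highest smoke insert for 31 of 36 axoneme genes and 15 of 19 dyneins, while smoke insert 4 was the lowest for 33 and 19. Fam183b, a small ciliary protein, had 94.1, 484, 347, 2.4, 85.6 and 187 in smoke inserts and 3548, 884, 779, 469, 749 and 632 in air inserts, a log2 fold change of -3.20 ± 1.01 (limma adjusted p = 0.0399), and limma adjusted p = 0.0743 without smoke insert 5.

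Genes of intraflagellar transport and the BBSome fell by less and more evenly. Of 32 tested 19 fell with 12 libraries and 24 with 10, at medians of -0.89 and -0.74. Ift172, part of the outward train, had 684, 1598, 1323, 304, 693 and 851 in smoke inserts and 2527, 2536, 2457, 1535, 2066 and 1933 in air inserts, a log2 fold change of -1.42 ± 0.33 (limma adjusted p = 0.0126). Dync2li1, a subunit of the motor that returns the train to the cell body, fell by 1.44 on the log2 scale (limma adjusted p = 0.00853). Of 16 genes that set multiciliated cell fate 4 fell with 12 libraries and 11 with 10. Gmnc, which starts the program, fell by 2.48 on the log2 scale (limma adjusted p = 0.0429; limma adjusted p = 0.0825 without smoke insert 1), as did Myb, at -1.51, and Rfx3, at -1.21. Foxj1, the master factor of motile cilia, had 941, 4602, 4105, 20.4, 1087 and 1525 in smoke inserts and 3840.0, 7708, 6504, 3723, 5628 and 5293 in air inserts. It did not pass with 12 libraries, at -2.51 ± 1.04 (limma adjusted p = 0.101), and passed with 10, at -1.51 ± 0.44 (limma adjusted p = 0.0188), and its groups overlap in both. The cell cycle factor E2f4, which multiciliated cells also use, was the 1 member that rose, by 0.45 ± 0.10 (limma adjusted p = 0.012).

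Other cell types of the layer changed to different extents. Of 16 club cell products 5 fell (31.25%, against 11.5% of all genes) and 1 rose (6.25%, against 9.75%). Scgb3a2, a secretoglobin, had 297, 3591, 1362, 224, 648 and 519 in smoke inserts and 66701, 5908, 4828, 2152, 6290.4 and 2529 in air inserts, where insert 1 held several times the others, and its log2 fold change was -3.19 ± 0.84 (limma adjusted p = 0.0209). Bpifa1, an abundant antimicrobial surfactant protein of the airway lining, fell by 3.70 on the log2 scale (limma adjusted p = 0.0397; limma adjusted p = 0.0771 without smoke insert 1). Scgb1a1, the defining club cell product, had 14.4 to 862 (median 249.8) in smoke inserts, against 465 to 10478 (median 961) in air inserts and did not pass in either fit, at -3.09 ± 1.08 with 12 libraries (limma adjusted p = 0.0577). Of 12 goblet cell and mucus genes none passed with 12 libraries. Muc5b, the main mucin of resting airway, had 29.4, 39.6, 52.7, 0, 13.7 and 26.9 in smoke inserts and 65.4, 55.6, 51.8, 3.27, 54.7 and 19.4 in air inserts. Its log2 fold change of -0.86 ± 0.96 (limma adjusted p = 0.585) turned to 0.18 ± 0.69 (limma adjusted p = 0.847) without smoke insert 4 and air insert 1, and neither passed. Muc5ac, the mucin of goblet cells in irritated airway, averaged 7.69 in smoke and 5.65 in air inserts and was not tested.

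Of 8 tested ionocyte genes 4 fell (50%, against 11.5% of all genes) and none rose. Of the 6 that averaged 10 or more in both groups 3 fell. Cftr, the chloride channel that these rare cells hold most of, had 49.1 to 110.2 (median 64) in smoke inserts, against 56.3 to 308 (median 178) in air inserts (log2 fold change -1.15 ± 0.38, limma adjusted p = 0.0481; limma adjusted p = 0.099 without air insert 5), and Atp6v1b1, a subunit of their proton pump, fell by 3.37 on the log2 scale (limma adjusted p = 0.00148). Their master factor Foxi1 did not pass in either fit, at -1.51 ± 0.68. Of 9 tuft cell genes Trpm5 and Dclk1 fell, with log2 fold changes of -2.41 and -1.77 (for Trpm5, limma adjusted p = 0.0636 without air insert 2), while their factor Pou2f3 stood at -0.05 ± 0.43 and did not pass. Of 6 neuroendocrine genes 4 fell, or 2 of the 3 that averaged 10 or more in both groups. Among the 4 were Uchl1 and Chga, at log2 fold changes of -2.91 and -2.67. Uchl1 averaged 7.45 in smoke inserts, so it entered the test only through the air inserts and is not among the 3. Of 16 basal cell genes Krt5, the basal keratin, rose, with 126048 to 209524 (median 167516) in smoke inserts, against 64879 to 91238 (median 80682) in air inserts (log2 fold change 1.06 ± 0.20, limma adjusted p = 0.00598), and Dapl1 and Sox2 fell. Trp63, the factor that defines basal cells, did not pass in either fit, at 0.32 ± 0.14. Of the 5 tested fibroblast markers 3 fell, or 2 of the 3 that averaged 10 or more in both groups. Dcn, or decorin, had 0 to 78.2 (median 4.14) in smoke inserts, against 90.7 to 329 (median 173) in air inserts (log2 fold change -4.52 ± 0.88, limma adjusted p = 0.00608). Whether stromal cells left over in the air inserts had a part in these falls was not tested.

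**Figure D4:**
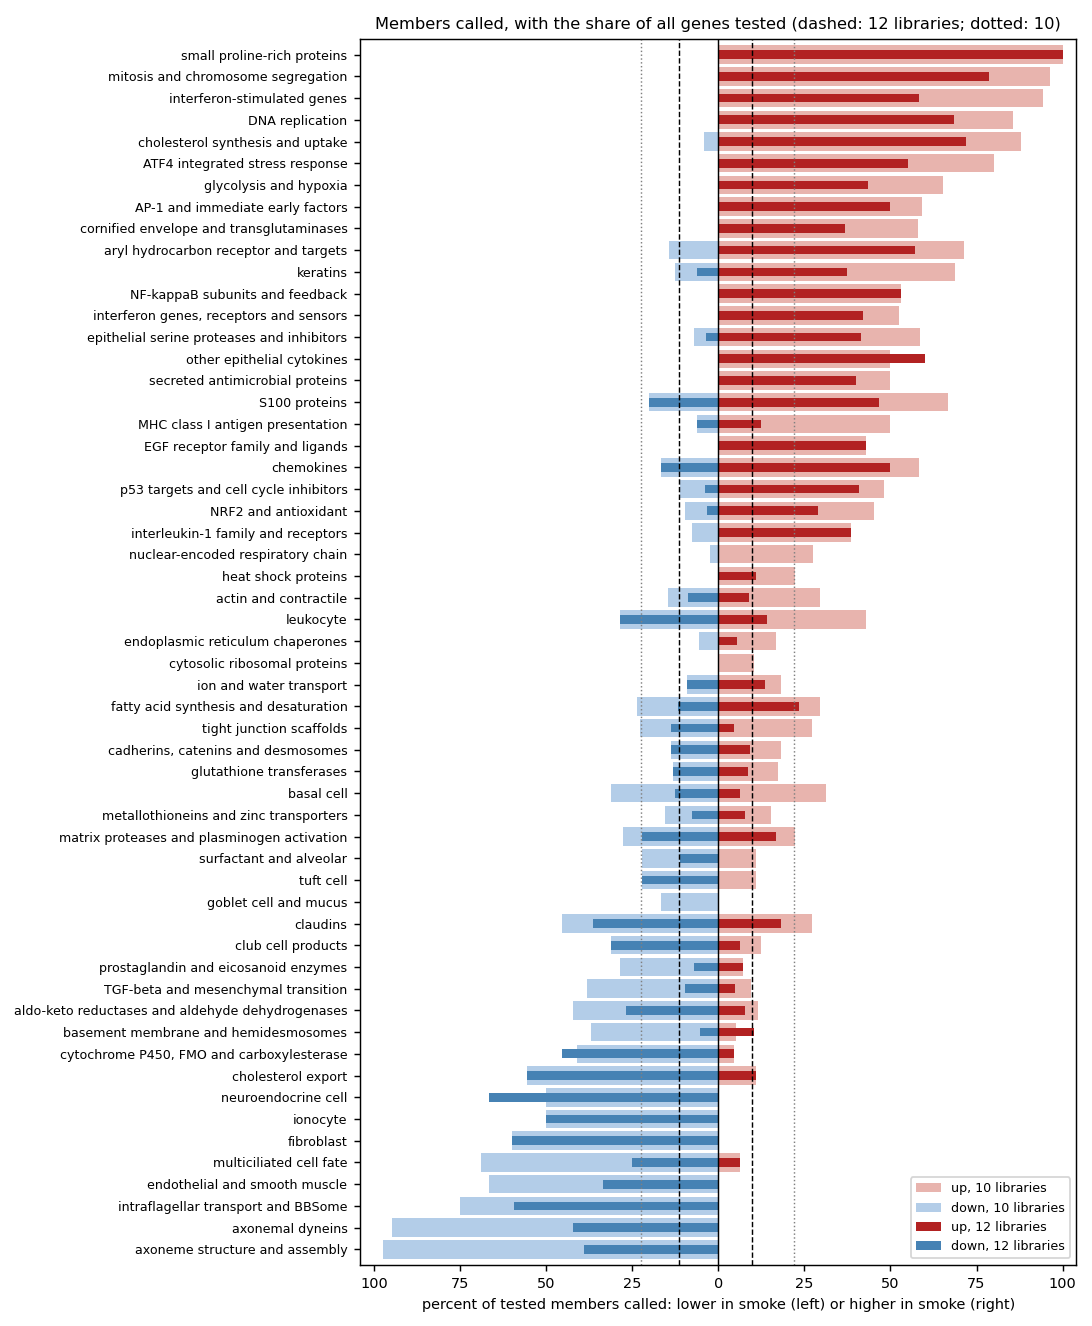
Percent of the tested members of each gene list called higher or lower in smoke inserts, with all 12 libraries (dark) and with 10 (pale); the dashed and dotted lines mark the share of all genes called in the same direction, 9.75% and 22.1% higher and 11.5% and 22.6% lower. Axoneme genes and axonemal dyneins are called far more often with 10 libraries than with 12.

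Enzymes that clear foreign compounds did not move together. Outside the receptor's own targets, falls outnumbered rises among the oxidising enzymes. Of 22 cytochrome P450, flavin mono-oxygenase and carboxylesterase genes 10 fell (45.5%, against 11.5% of all genes) and 1 rose (4.55%, against 9.75%), at a median log2 fold change of -1.12. Fmo2, the main mono-oxygenase of lung, had 3875, 7611, 6906, 1480.4, 5636 and 3846 in smoke inserts and 7117, 15739, 15915, 14069, 14318 and 15158 in air inserts, a log2 fold change of -1.62 ± 0.36 (limma adjusted p = 0.0106). Cyp4b1 fell by 2.08 on the log2 scale (limma adjusted p = 0.0139) and Cyp2f2, which club cells use to oxidise naphthalene, at -1.03 (limma adjusted p = 0.0438). Of 26 aldo-keto reductases and aldehyde dehydrogenases 7 fell (26.9%, against 11.5% of all genes) and 2 rose (7.69%, against 9.75%). Akr1c14, a hydroxysteroid dehydrogenase, had 5.88, 161, 59.1, 16.8, 20.5 and 7.25 in smoke inserts and 513, 465, 329, 186, 590.0 and 222 in air inserts, with every smoke insert below every air insert, as in 5.89% of all genes, and a log2 fold change of -3.86 ± 0.69 (limma adjusted p = 0.00425), while Aldh1a1, which makes retinoic acid, fell by 2.04 (limma adjusted p = 0.0245; limma adjusted p = 0.0555 without smoke insert 1). Akr1b8, which reduces aldehydes, rose by 0.72 ± 0.22 (limma adjusted p = 0.0375). Aldh3a1 had 18875 to 35607 (median 26259) in smoke inserts, against 12657 to 41759.5 (median 16259) in air inserts and passed only with the 10 libraries, at 0.84 ± 0.20 (limma adjusted p = 0.00848).

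NRF2, encoded by Nfe2l2, is released by oxidants and electrophiles and drives glutathione synthesis and antioxidant genes. Of 31 tested members of its list 9 rose (29.0%, against 9.75% of all genes) and 1 fell (3.23%, against 11.5%). Gclc, the catalytic subunit of the first enzyme of glutathione synthesis, had 4175 to 9995 (median 9178) in smoke inserts, against 1970.2 to 5552 (median 4123) in air inserts (log2 fold change 0.99 ± 0.27, limma adjusted p = 0.0244). Its partner Gclm and the cystine transporter Slc7a11 did not pass in either fit, at 0.33 ± 0.15 and 0.65 ± 0.44. Hmox1, which degrades haem, rose by 0.91 ± 0.21 (limma adjusted p = 0.0131), Txnrd1 by 0.69 ± 0.14 (limma adjusted p = 0.00708) and the ferritin heavy chain Fth1 by 1.41 ± 0.41 (limma adjusted p = 0.030; limma adjusted p = 0.0663 without air insert 6). Fth1 reached 154237 normalised counts in air insert 1, against 23344 to 39654 in the other air inserts. Gpx3, a secreted peroxidase, was the 1 that fell, at -1.27 (limma adjusted p = 0.0337; limma adjusted p = 0.0709 without smoke insert 6). Of 23 glutathione transferases 2 rose and 3 fell, a share near the background. Gsta1 rose by 2.07 ± 0.52 (limma adjusted p = 0.0167) and Gstt1 fell by 1.64 (limma adjusted p = 0.00596).

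The barrier between cells is set by claudins, by the scaffolds that hold them and by cadherin junctions below. Of 11 claudins 4 fell (36.4%, against 11.5% of all genes) and 2 rose (18.2%, against 9.75%). Of the 9 that averaged 10 or more in both groups 3 fell and 2 rose. Cldn2, which forms pores for cations, had 5.88, 18.8, 25.6, 0, 5.7 and 4.14 in smoke inserts and 51.7, 53.3, 64.6, 45.8, 41.7 and 46.9 in air inserts, a log2 fold change of -2.86 ± 0.64 (limma adjusted p = 0.0108). Cldn8 and Cldn10 fell, at log2 fold changes of -1.33 and -1.72, whereas the sealing Cldn4 rose by 0.54 ± 0.18 (limma adjusted p = 0.0442) and Cldn1 did not pass at 0.53 ± 0.52. Of 22 tight junction scaffold and polarity genes 3 fell (13.6%, against 11.5% of all genes) and 1 rose (4.55%, against 9.75%), so neither share is above the background by more than 1 gene. Jam2 and Jam3, adhesion molecules of the junction, fell, at -2.40 and -2.76, and Pard6b rose by 0.89 ± 0.21. Tjp1, which encodes ZO-1, had 6186, 6720.1, 5841, 2929.6, 7056 and 7598 in smoke inserts and 1041, 4037, 4047, 4077, 4548 and 4089.7 in air inserts. Smoke insert 4 was lowest and air insert 1 far below the other air inserts, and the log2 fold change was 0.81 ± 0.35 with 12 libraries (limma adjusted p = 0.118) and 0.68 ± 0.07 with 10 (limma adjusted p = 0.000219). Of 22 cadherin, catenin and desmosome genes 3 fell and 2 rose, shares of 13.6% and 9.09% that are near those of all genes. Cdh1, the cadherin of epithelia, had 16493 to 19269 (median 18127) in smoke inserts, against 15436 to 23134 (median 20254) in air inserts and did not pass in either fit, at -0.13 ± 0.13, and Cdh26, a cadherin of ciliated and inflamed epithelium, had 0 to 470.2 (median 91.9) in smoke inserts, against 646 to 1993 (median 1100.4) in air inserts (log2 fold change -4.02 ± 1.18, limma adjusted p = 0.0309; limma adjusted p = 0.0606 without air insert 2).

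Channels that move salt and water over the epithelium did not change as a group. Of 22 tested 3 rose and 2 fell, shares of 13.6% and 9.09% that are near the 9.75% and 11.5% of all genes. Slc26a9, a chloride channel of airway, had 94.9 to 354 (median 165) in smoke inserts, against 16.3 to 44.3 (median 23) in air inserts (log2 fold change 2.64 ± 0.37, limma adjusted p = 0.00121). The potassium channel Kcnq1 and the calcium-activated chloride channel Ano1 fell, at log2 fold changes of -1.40 and -0.97. The sodium channel subunits Scnn1a, Scnn1b and Scnn1g did not pass in either fit, at -0.36 ± 0.26, -0.51 ± 0.44 and 0.13 ± 0.32.

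Some of the genes with the largest changes belong to none of these groups. Trim40, a ubiquitin ligase, had 174 to 921 (median 297) in smoke inserts, against 5.09 to 29.1 (median 9.49) in air inserts (log2 fold change 4.87 ± 0.47, limma adjusted p = 0.000112). Aoc1, which breaks down histamine and other diamines, had 2.4 to 111 (median 22.8) in smoke inserts, against 201 to 978 (median 346) in air inserts (log2 fold change -3.82 ± 0.70, limma adjusted p = 0.00492). Nell1, a secreted protein known from bone growth, had 0 to 56.3 (median 10.3) in smoke inserts, against 139 to 221 (median 158) in air inserts (log2 fold change -4.02 ± 0.77, limma adjusted p = 0.00598), and the lipid-binding Sec14l3 had 423, 3619.6, 2543, 0, 238 and 436 in smoke inserts and 13705, 14162, 11968, 6002, 9514 and 8242 in air inserts (log2 fold change -5.22 ± 1.55, limma adjusted p = 0.0329; limma adjusted p = 0.0633 without smoke insert 5). Both Aoc1 and Sec14l3 were expressed in every air insert, and Sec14l3 was at 0 in smoke insert 4.

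Against the male cultures, few of these changes differed by a test of the difference itself. In a fit of all 24 libraries, 140 of 13549 genes (1.03%) had a smoke response in female cultures that differed from the male one, 94 (0.694%) with a higher and 46 (0.34%) with a lower log2 fold change, and 840 (6.2%, of which 503 or 3.71% higher and 337 or 2.49% lower) without the 2 female libraries that stand apart. The labels do not say whether each sex is more than 1 cell preparation, so sex and preparation cannot be told apart. Sprr2f averaged 1167 in female smoke and 4.5 in female air inserts, and 22 in male smoke and 0.80 in male air inserts, a difference of responses of 3.78 ± 0.64 on the log2 scale (limma adjusted p = 0.0051). Ppbp averaged 19458 in female smoke and 1492 in female air inserts, and 5857 in male smoke and 31.9 in male air inserts, a difference of -3.64 ± 0.61 (limma adjusted p = 0.00451), where the female air inserts already held far more than the male ones. Scd1, a fatty acid desaturase, averaged 2726 in female smoke and 1036 in female air inserts, and 6712 in male smoke and 14308 in male air inserts, a difference of 2.47 ± 0.29 (limma adjusted p = 0.000106). Ptgs2 averaged 1361 in female smoke and 29 in female air inserts, and 3899 in male smoke and 1170.4 in male air inserts, a difference of 3.36 ± 0.73 (limma adjusted p = 0.0246), so that its larger female fold change went with a lower female air level. The differences for Cxcl3, Nrg1 and Slc7a5 were 2.88, 1.37 and 1.44.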

How the data were processed

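Per the labels, the NEBNext Ultra II kit was used for the libraries and a NovaSeq for sequencing. Tools named in the submitters' processing notes are Trimmomatic 0.38.0 and FastQC 0.11.9, then DESeq2 and HTSeq, and the builds named are mm10 and GRCm38. Which aligner was used, and whether strand was counted, is not given in the sources used here, so reads of overlapping genes cannot be told apart.

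The authors deposited a table of DESeq2-normalised counts, a signal in which each column is whole gene counts divided by 1 size factor, with no scaling for gene length. In the 12 female columns every value came out whole once divided by a step (100.0% within a tolerance of 0.001), which gave back the reads, and no column went unmapped. The authors' deposited table for the female cultures holds log2 fold changes of air over smoke with errors in log2 units, a Wald statistic (a score), and p-values. Its signs were turned here. The deposited refGene annotation, whose exon starts and ends on mm10 are of the kind other, gave transcript lengths for all 13559 genes tested, and gene starts and ends in the authors' deposited table are of that kind too.

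Normalised counts plus 1 were taken to log2 and fitted in limma 3.58.1 (R 4.3.3) with 1 term per group and eBayes with a mean-variance trend, over the 12 female libraries, two-sided, with Benjamini-Hochberg adjustment over all genes tested. The fit was tested on simulated data. The reads have no molecular identifiers, so copies of the same molecule cannot be told from separate molecules. Counting error is therefore only part of what limits precision. Alternatives included edgeR 4.0.16 and DESeq2 1.42.0 on the recovered reads.

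The members and gene lists were chosen with earlier results of these data known, so lists are described by counts and medians and carry no test. Genes are named by rule. The rule takes the 10 highest and 10 lowest fold changes among genes called in both fits that reach 50 on average in one group and do not overlap between groups in the 10 libraries, from each list the 2 largest changes called in both fits that reach 50 on average in one group, and a set of known markers. It names 122 genes, and other list members were given as examples after their values were seen. Predicted models stay unnamed, and some genes are not reported here.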

Additional observations from a re-analysis of the deposited data

Results flagged for a closer look

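Within a group of 6 inserts, a gene of the naming rule is given here where its highest or lowest insert stood apart from the other 5 by Dixon's 95% criterion, which chance meets in about 1 of 20 groups. Smoke insert 4 stood apart at the low end in cilia and secretory genes. It held 0 normalised counts of Sec14l3 where the other smoke inserts held 238 to 3620, 0 of Cdh26 (others 58.8 to 470.2), 0 of Muc5b (others 13.7 to 52.7), 2.4 of Dnah1 (others 80.0 to 370.1), 2.4 of Fam183b (others 85.6 to 484) and 20.4 of Foxj1 (others 941 to 4602). It also held 86.3 of Cplx2 (others 192 to 280.3) and 2930 of Tjp1 (others 5841 to 7598), and the highest value of the chaperonin Hspd1, 12216 (others 3892 to 5905).

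Air insert 1 stood apart at the high end in genes with short transcripts and in others. It held 3.04 of Sprr2h (other air inserts 0.91 to 1.14, a difference near the floor, with 7 reads in the whole air group), 1756 of the surfactant gene Sftpc (others 155 to 306), 555 of Dapl1 (others 125 to 213), 66701 of Scgb3a2 (others 2152 to 6290), 3548 of Fam183b (others 469 to 884), 1584 of Dync2li1 (others 392 to 652), 154237 of Fth1 (others 23344 to 39654) and 4867 of Hspd1 (others 2811 to 3113). It was the lowest for the zinc transporter Slc39a14, 94.3 (others 155 to 179), Nrg1, 122 (others 200.1 to 239), Idi1, 89.8 (others 459 to 636), Scd1, 599 (others 1003 to 1201), Edem1, 864 (others 1301 to 1617), Tiparp, 426 (others 1029 to 1206) and Tjp1, 1041 (others 4037 to 4548). The part of the length trend of these 2 libraries in single genes was not tested beyond leaving the pair out.

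Other inserts stood apart in single genes. Smoke insert 2 had the lowest Slc39a8, 213 (others 294 to 352), and the highest Dusp1, 12949 (others 2304 to 3510). Air insert 5 had the highest Tnip3, 223 (others 89.3 to 120.2), Ereg, 206 (others 111 to 131), and Pmaip1, 1116 (others 613 to 733). Air insert 6 had the highest Nell1, 221 (others 139 to 164). By library, the correlation with transcript length of -0.427 in smoke insert 4, the 3037 genes over 2-fold from the group median in smoke insert 4, the 4962 in air insert 1 and the 24406742 reads of smoke insert 3 also stood apart.

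The smoke response differed between the sexes in 140 genes by limma's interaction term. Among the named genes the difference of log2 fold changes, female minus male, was 3.78 for Sprr2f, 3.36 for Ptgs2, 2.88 for Cxcl3, 1.37 for Nrg1, 2.47 for Scd1 and 1.44 for Slc7a5, and it was negative for 4 genes. It was -4.74 for Amtn, an enamel matrix protein, which averaged 12.2 in female smoke and 481 in female air inserts, and 0 in male smoke and 0.969 in male air inserts. It was -4.26 for Adamts18, a matrix protease, which averaged 2.0 in female smoke and 94.9 in female air inserts, and 0.609 in male smoke and 0.122 in male air inserts. It was -5.46 for Uchl1, which averaged 7.45 in female smoke and 53.3 in female air inserts, and 39.2 in male smoke and 2.37 in male air inserts, and -3.64 for Ppbp. The female air means of Amtn and Adamts18 came mostly from inserts 4 to 6. In female air inserts 1 to 6 Amtn had 176, 73.8, 54.6, 824, 881 and 874 normalised counts. Adamts18 had 4.56, 7.94, 15.5, 168, 226 and 148 there. The cause of this split within the air group was not tested.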

How the results depend on the processing

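With all 12 libraries 2879 genes were called (1322 higher, 1557 lower). Without smoke insert 4 and air insert 1, 6055 genes passed (2996 higher, 3059 lower), with edgeR on the recovered reads without it 5972 (3169 and 2803), and with array quality weights 7395 (3596 and 3799). One fit of all 24 libraries called 4713 (2097 and 2616). Leaving out 1 insert at a time gave 1783 to 4463 calls (870 to 2143 higher, 913 to 2320 lower), the most without air insert 1 (4463) and the fewest without smoke insert 6 (1783), then smoke inserts 5 (1849) and 1 (1916) and air insert 2 (1887). Inserts 1 to 3 alone called 15 genes (15 higher, 0 lower) and, without air insert 1, 779 (477 and 302). Inserts 4 to 6 alone called 2519 and, without smoke insert 4, 5620 (2716 and 2904). The fits of 3 inserts without 1 of the pair were added after seeing the data, and the cause of the difference between inserts 1 to 3 and 4 to 6 was not tested. TMM, total and quantile scaling, pseudocounts of 0.5 and 5, no filter, a mean of at least 50, robust eBayes and edgeR and DESeq2 with all 12 libraries stayed within 1.5 times, at 2389 to 4018 calls. At an unadjusted p under 0.05, 4824 genes passed.

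Insert numbers were not taken as pairs, since the labels do not say what they share. Deviations of same-numbered inserts from the group means correlated at -0.20 for insert 1 and at 0.37, 0.24, 0.15, 0.18 and 0.11 for inserts 2 to 6, against -0.473 to 0.354 for the 30 other combinations, and 2 of 6 smoke inserts correlated best with their own number. With the insert number as a replicate block 2422 genes passed, and 4325 (1918 higher, 2407 lower) without the pair of libraries. The interaction gave 840 genes (503 and 337) without the pair, 212 (144 higher) under quantile scaling, 66 (40 and 26) with the replicate block, and 75 to 431 (56 to 238 higher, 19 to 193 lower) with 1 insert left out.

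Of 115 named genes called, 91 kept the call in all 12 fits that leave out 1 insert. The 24 that lost it at least once included Sec14l3, Cdh26, Cftr, Bpifa1, Gmnc, Dnah1, Dnah2, Spag16, Fam183b, Fth1, Gpx3, Cd68, Lyz2, Hspd1 and H2-Q4, with adjusted p of at most 0.10 in any such fit. The direction turned for 2 genes, neither of them called in the fit of all 12 libraries. Muc5b had a log2 fold change of 0.18 without the pair, 0.42 with array quality weights and 0.26 in inserts 4 to 6 without the pair. Cdh1 had 0.11 in inserts 1 to 3 alone and 0.024 there without the pair. Genes averaging under 10 normalised counts entered only the fit with no filter, which called 2733 genes, and at that level counting error limits precision.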

Other observations

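Several gene groups that smoke could have reached showed few or no calls with all 12 libraries. Of 38 cytosolic ribosomal protein genes and 40 nuclear-encoded respiratory chain genes none passed with limma, against 21.2% of all genes, and with 10 libraries 4 ribosomal and 12 respiratory genes did, against 44.7%. Of the respiratory genes 11 rose (27.5%, against 22.1% of all genes) and 1 fell (2.5%, against 22.6%) with 10 libraries. The 4 ribosomal genes all rose (10.5%, against 22.1%). The median log2 fold changes of ribosomal and respiratory genes were -0.05 and -0.00 over all inserts, -0.82 and -0.60 in inserts 1 to 3 and 0.75 and 0.54 in inserts 4 to 6. In both lists smoke insert 4 was the highest of the smoke inserts for every tested member, 38 and 40, and air insert 1 was the highest of the air inserts for 38 and 39. Of 18 heat shock genes 2 rose, the mitochondrial chaperones Hspd1 and Hspa9, by 0.77 and 0.78, while the stress-inducible Hspa1a and Hspa1b did not pass in either fit, at 0.07 ± 0.11 and 0.06 ± 0.11. The metal-binding proteins Mt1 and Mt2, which cadmium in smoke is known to induce, did not pass in either fit, at -0.16 ± 0.46 and -0.01 ± 0.46.

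Genes of TGF-beta signalling and mesenchymal transition did not rise as a group. Of 21 tested 2 fell and 1 rose with 12 libraries (9.52% and 4.76%, against 11.5% and 9.75% of all genes), and 8 fell and 2 rose with 10 (38.1% and 9.52%, against 22.6% and 22.1%). Of the 20 that averaged 10 or more in both groups 1 fell and 1 rose with 12 libraries. Vim, which encodes vimentin, had 80, 92.8, 108, 292, 21.7 and 49.7 normalised counts in smoke inserts and 356, 191, 166, 155, 274 and 164 in air inserts, and passed only with 10 libraries, at -1.58 ± 0.39 (limma adjusted p = 0.00878). Cdh2, or N-cadherin, fell by 2.50 on the log2 scale (limma adjusted p = 0.0169), with 0, 20.9, 16.8, 7.19, 9.13 and 5.18 in smoke inserts and 45.6, 49.9, 41.8, 27.2, 63 and 34.6 in air inserts. Averaging under 10 in smoke inserts, Cdh2 entered the test only through the air inserts. Fn1, or fibronectin, had 1209, 175, 526, 3283, 403 and 218 in smoke inserts and 348, 589, 598, 3924, 3992 and 3832 in air inserts, where inserts 4 to 6 held more than inserts 1 to 3. Tgfb1 did not pass in either fit, at -0.04 ± 0.20. Of 34 actin and contractile genes 3 rose and 3 fell (8.82% each way, near the shares of all genes). Of the 33 that averaged 10 or more in both groups 2 rose and 3 fell. The neuronal tubulin Tubb3, which entered the test only through the smoke inserts, had 74.3 to 557 (median 178) in smoke inserts, against 0.91 to 6.09 (median 4.59) in air inserts (log2 fold change 5.45 ± 0.48, limma adjusted p = 5.15e-05).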
